A study of Mus musculus with 8 samples.

Results

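The mitochondrial calcium uniporter is the channel of the inner mitochondrial membrane through which calcium enters the matrix, and 9 genes of this machinery were followed here in hearts of mice with and without Lrpprc. The genes were Mcu, Mcub, Smdt1, Micu2, Micu3, Mcur1, Letm1, Slc8b1 and Ppif. They were taken by name from 50599 gene records in each library, and each matched 1 record. All 9 were among the 19959 records that received an adjusted p in the comparison of the genotypes.

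RNA was sequenced from whole hearts of 4 Lrpprc knockout and 4 wildtype mice, all on the C57BL/6N strain and, per the study's methods, males aged 12 weeks. The knockout animals carried loxP-flanked Lrpprc alleles together with Cre and lost the gene in heart and skeletal muscle. The methods describe the controls, labelled wildtype, as carrying the loxP-flanked alleles without Cre, and the promoter that drove Cre was not given in the sources used here. Each library came from total RNA after depletion of cytoplasmic rRNA. The labels number 4 libraries in each genotype and name no mouse and no batch, and the methods describe 4 hearts of each.

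The pore of the uniporter is built of the Mcu protein, and its paralog Mcub joins the same ring and lowers its conductance. Smdt1 encodes the small membrane protein EMRE, which holds the pore open and ties it to calcium-sensing gatekeepers with EF hands, among them Micu2 and Micu3. In heart muscle, calcium that enters this way activates matrix dehydrogenases and supports ATP production at each beat. Overload of the matrix opens the permeability transition pore, which cyclophilin D, the product of Ppif, makes more sensitive to calcium. Mcur1 is an inner membrane regulator of the uniporter. Slc8b1 encodes the sodium-calcium exchanger that returns calcium to the cytosol, and Letm1 encodes an inner membrane protein of cation and proton exchange.

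Total estimated counts ran from 35218541 to 47743376 per library. Mitochondrial rRNA took 44.0 to 46.9% of the counts in wildtype and 65.6 to 67.8% in knockout libraries. Lrpprc itself (ENSMUSG00000024120.12) fell from 3665 ± 216 to 577.0 ± 48.6 normalized counts (SD, n = 4 each), with no overlap between the groups. Of 7 cardiomyocyte markers, 5 were lower and none was higher in the knockout. Tnnt2 (log2 fold change -0.15, DESeq2 adjusted p = 0.509) and Actn2 (0.1, adjusted p = 0.687) did not pass. The summed level of the 7 was 933749 to 1046864 in wildtype and 457942 to 602996 normalized counts in knockout libraries. Myh6 alone had means of 553900 and 302600. Of 8 macrophage markers, 6 were higher, with sums of 3163 to 4068 against 3826 to 8599, and of 6 fibroblast markers, 2 were higher, with sums of 14936 to 15941 against 13938 to 45605. Of 4 skeletal muscle markers, Acta1 (log2 fold change 2.43, adjusted p = 9.4e-06) and Tnnt3 (2.71, adjusted p = 0.00188) were higher and Ckm (-0.54, adjusted p = 0.000172) was lower, whereas Myh4 did not exceed 1.07 normalized counts in any library. Of 4 atrial markers, 2 were lower, and knockout replicate 3 stood apart with an atrial sum of 1268 against 3233 to 6012 in the other knockout and 9980 to 12038 in the wildtype libraries. Fewer cardiomyocytes and less RNA per cardiomyocyte cannot be told apart in whole-heart RNA. A change confined to the 5 lower cardiomyocyte markers was not tested, nor was the part of cell makeup in the results below.

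The promoters of the members that carry the results are shown first. Of the 9 genes, 7 had a promoter entry from RefSeq (GRCm38.p6), and Micu3 and Slc8b1 had none. Each window holds the 250 bases before the RefSeq start, written 5′ to 3′ on the gene's strand. GENCODE places some starts further upstream, so 16 bases of the Ppif window lie in a Ppif exon, 100 bases of the Letm1 window lie in Letm1, and the Smdt1 window lies within the Smdt1 span. Micu2 is shown because it rose, Ppif because it was lower, and Mcu because it is the pore that the others act on. Their windows lie at chr14:57999263-57999512 on the minus strand, chr14:25693920-25694169 on the plus strand and chr10:59616693-59616942 on the minus strand.
Micu2: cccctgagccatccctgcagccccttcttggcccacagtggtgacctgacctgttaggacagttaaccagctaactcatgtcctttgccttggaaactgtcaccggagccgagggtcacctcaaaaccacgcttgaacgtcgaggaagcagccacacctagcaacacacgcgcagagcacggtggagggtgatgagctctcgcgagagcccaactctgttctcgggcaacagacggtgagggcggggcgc
Ppif: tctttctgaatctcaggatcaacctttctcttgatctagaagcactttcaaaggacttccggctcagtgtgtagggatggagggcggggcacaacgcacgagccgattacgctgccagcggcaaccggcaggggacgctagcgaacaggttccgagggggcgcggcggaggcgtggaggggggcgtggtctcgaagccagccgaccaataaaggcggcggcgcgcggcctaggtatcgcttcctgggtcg
Mcu: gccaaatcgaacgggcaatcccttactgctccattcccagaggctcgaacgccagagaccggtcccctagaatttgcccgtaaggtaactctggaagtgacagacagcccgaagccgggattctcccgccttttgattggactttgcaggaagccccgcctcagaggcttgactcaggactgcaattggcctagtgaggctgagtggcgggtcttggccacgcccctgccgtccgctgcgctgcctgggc

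These 3 windows are alike in base composition, with 60.4% G and C for Micu2, 60.8% for Mcu and 62.8% for Ppif. Motifs of 4 factors tied to mitochondrial genes or stress were searched on both strands: TGATGNAA for ATF4, TGACGTCA for CREB, GCGCANGC for NRF1 and TCAAGGTCA for ERR. None of them was in the 3 windows, so no letter is in capitals. Among all 32851 promoters of this length, 3.45% held the ATF4, 1.55% the CREB, 8.3% the NRF1 and 0.387% the ERR motif. Of the 7 member promoters, that of Smdt1 held the CREB motif, which reads alike on both strands, 146 to 139 bases before its start, and an NRF1 motif 85 to 78 bases before it. The Letm1 promoter held an NRF1 motif 164 to 157 bases before its start. A match is a run of letters, not a bound site, and its absence says nothing of the factor.

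The Micu2 window overlaps a neighbor. In the GENCODE M21 annotation, 140 of its 250 bases lie in an exon of 3110083C13Rik, a noncoding gene on the other strand. Whether the 2 genes share a promoter was not tested. That RNA was close to absent, with 3.186, 4.837, 6.931 and 3.208 normalized counts in the wildtype hearts and 6.713, 3.471, 12.66 and 2.82 in the knockout hearts, each in the order of replicates 1 to 4 (DESeq2, log2 difference 0.48, SE 0.754, adjusted p = 0.675). Counts this low cannot show whether the neighbor's RNA moved with Micu2.

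Levels of the 9 genes can be compared with each other only per transcript length, as TPM (transcript abundance corrected for length and scaled to the same total in every library). In wildtype hearts Smdt1 was the highest at 46.6 ± 4.7 TPM, followed by Ppif at 36.3 ± 2.4, Letm1 at 12.7 ± 1.1, Micu2 at 11.3 ± 0.61 and Mcur1 at 8.14 ± 0.51 (SD, n = 4). The pore gene Mcu came after them at 3.69 ± 0.27 TPM, followed by Slc8b1 at 2.10 ± 0.63, Micu3 at 1.68 ± 0.18 and Mcub at 0.693 ± 0.27. Letm1 and Micu2 overlapped in their ranges, and so did Slc8b1 and Micu3, whereas every other neighbor in this order was separated in all 4 libraries. Transcripts of the EMRE gene thus stood far above those of the pore it serves, and transcripts of the pore far above those of its paralog Mcub.

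In knockout hearts the order changed at Micu2. Smdt1 remained the highest at 45.9 ± 5.2 TPM and Ppif followed at 24.9 ± 5.5, but Micu2, at 18.9 ± 3.0, now overlapped Ppif and lay above Letm1, at 9.39 ± 0.96, without overlap. Mcur1 had 6.17 ± 1.0 TPM, Mcu 3.44 ± 0.48, Slc8b1 1.60 ± 0.28, Micu3 1.29 ± 0.18 and Mcub 0.815 ± 0.41. Slc8b1 overlapped Micu3, and Micu3 overlapped Mcub. The TPM of all other genes shrinks where mitochondrial rRNA takes a larger share, so the genotypes are compared on normalized counts below.

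**Figure D1:**
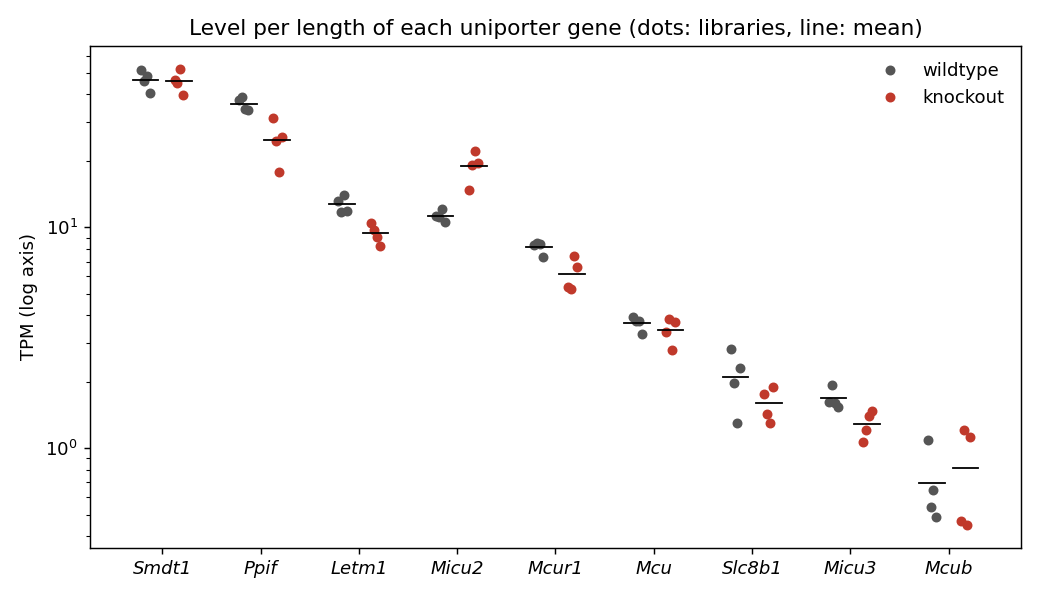
TPM of each uniporter gene on a log axis, with a dot for each of the 4 wildtype and 4 knockout libraries and a line at the mean. The genes span from below 1 TPM (Mcub) to over 40 (Smdt1 in most libraries), and Micu2 alone has all knockout dots above all wildtype dots, while Letm1, Ppif and Micu3 have them below on this scale.

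The comparison of the genotypes asks whether loss of Lrpprc, a protein that binds mitochondrial RNA, is accompanied by a change in the nuclear mRNAs of the calcium uniporter. Micu2 rose and Ppif fell, and the other 7 genes did not pass the test (DESeq2, adjusted p under 0.05). Thus 1 of 9 genes was higher, against 18.2% of all tested records, and 1 of 9 was lower, against 15.5%. Together, 22.2% of the members were called, against 33.7% over all records. The difference in shares was not tested, and it depended on the scaling. Under total counts 5 of the 9 members were called, with 7836 calls over all genes. The median log2 fold change was -0.25 over the 9 genes and 0.01 over all records tested. Only Micu2 had normalized counts that did not overlap between the genotypes, which held for 33.0% of all records. Summed over the 9 genes, normalized counts were 6549 to 7096 in wildtype and 6207 to 7375 in knockout libraries.

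Among the pore genes, Mcu (ENSMUSG00000009647.13, chromosome 10, 59446984 to 59616692, minus strand) had nearly the same mean in both genotypes, 339.4 ± 18.6 and 346.3 ± 30.1 normalized counts (SD, n = 4). Wildtype replicates 1 to 4 had 356.1, 342.6, 346.0 and 312.8 normalized counts, and knockout replicates had 354.5, 377.0, 305.0 and 348.4. The knockout values lay on both sides of the wildtype values. The log2 fold change was 0.03 (SE 0.119, DESeq2 adjusted p = 0.881), with a 95% interval from 0.869-fold to 1.20-fold, under the median-of-ratios scaling.

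Mcub (ENSMUSG00000027994.14, chromosome 3, 129914960 to 129970206, minus strand), the subunit that lowers the conductance of the pore, was scarce. It had 35.53, 17.64, 21.5 and 16.58 normalized counts in wildtype and 17.75, 42.73, 17.81 and 37.86 in knockout replicates 1 to 4. High and low libraries occurred in both genotypes. The log2 fold change of 0.42 (SE 0.433, adjusted p = 0.496) had an interval from 0.744-fold to 2.41-fold, which leaves a doubling and a modest fall both possible at this depth. It ran from 0.17 without knockout replicate 2 to 0.64 without wildtype replicate 1, other single libraries left out giving values between, and was 0.68 without the correction for effective length. Knockout replicates 2 and 4, the higher in Mcub, also had the highest macrophage marker sums, 8599 and 7304 against 4391 and 3826 in replicates 1 and 3, whereas in wildtype hearts replicate 1, the highest in Mcub, had a macrophage sum of 3273 within a range of 3163 to 4068. The part of macrophages in the Mcub level was not tested. The effective length assigned to Mcub also varied, from 382 to 1155 bases in wildtype and from 841 to 1150 bases in knockout libraries.

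Smdt1 (ENSMUSG00000022452.14, chromosome 15, 82338959 to 82349091, plus strand), the EMRE gene, had 960.5, 866.3, 916.0 and 789.3 normalized counts in wildtype replicates. Knockout replicates had 1007, 903.7, 1177 and 763.6, a wider spread around a similar mean. The log2 fold change was 0.12 (SE 0.148, adjusted p = 0.564), with an interval from 0.891-fold to 1.33-fold, and it was 0.01 without knockout replicate 3 and 0.22 without knockout replicate 4. The Smdt1 record shares 6785 bases of its span with Pheta2 on the same strand, and whether reads were divided between them was not tested. Pheta2 itself had only 18.92 ± 7.61 normalized counts in wildtype and 25.11 ± 14.4 in knockout hearts.

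Of the gatekeepers, Micu2 (ENSMUSG00000021973.8, chromosome 14, 57916261 to 57999262, minus strand) showed the largest difference among the 9 genes. Wildtype hearts had 856.1, 860.4, 933.8 and 844.8 normalized counts in the order of their replicates, and knockout hearts had 1314, 1577, 2045 and 1533. The lowest knockout library was above the highest wildtype library. The mean rose from 873.8 ± 40.6 to 1617 ± 307, which is 1.85-fold, with an interval from 1.52-fold to 2.25-fold (log2 0.89, SE 0.143, DESeq2 adjusted p = 8.8e-09, edgeR adjusted p = 0.000351). Its effective length was stable, between 2142 and 2147 bases in all libraries. Knockout replicate 3, the library with the lowest atrial marker sum, was the highest in Micu2, and without it the log2 fold change was 0.75 (adjusted p = 6.88e-13).

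Micu3 (ENSMUSG00000039478.15, chromosome 8, 40307458 to 40386308, plus strand), a gatekeeper best known from the nervous system that enhances uptake, did not share this rise. Its normalized counts were 129.3, 155.7, 129.8 and 128.6 in wildtype and 98.53, 103.8, 134.4 and 120.9 in knockout replicates. Of the 4 knockout libraries, 3 lay below all wildtype libraries, and replicate 3 lay among them. Its log2 fold change was -0.25 (SE 0.175, adjusted p = 0.293), with an interval from 0.665-fold to 1.07-fold.

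Mcur1 (ENSMUSG00000021371.4, chromosome 13, 43538393 to 43560191, minus strand) varied among knockout hearts. Its normalized counts were 1234, 1280, 1269 and 1150 in wildtype hearts, and 931.6, 846.5, 1340 and 1013 in knockout hearts. Knockout replicates 1, 2 and 4 were below every wildtype library, whereas replicate 3 was above all of them. With all 8 libraries the log2 fold change was -0.26 (SE 0.15, adjusted p = 0.186), and leaving out knockout replicate 3 gave -0.41 (adjusted p = 0.000252), whereas leaving out knockout replicate 2 gave -0.17 (adjusted p = 0.442).

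Letm1 (ENSMUSG00000005299.6, chromosome 5, 33739673 to 33782817, minus strand) was near the threshold. Wildtype replicates had 1370, 1228, 1468 and 1289 normalized counts and knockout replicates 1261, 1093, 1129 and 880.7. Knockout replicate 1 was the only knockout library within the wildtype range. Between genotypes it differed by -0.30 on the log2 scale (SE 0.131) with an interval from 0.682-fold to 0.973-fold, and its adjusted p was 0.0666 in DESeq2 and 0.0458 in edgeR.

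Slc8b1 (ENSMUSG00000032754.14, chromosome 5, 120511168 to 120534024, plus strand), the exchanger that removes matrix calcium, varied widely among wildtype hearts. It had 212.9, 152.1, 99.9 and 184.2 normalized counts there and 155.6, 116.5, 119.4 and 148.4 in knockout replicates. Every knockout value lay within the wildtype range. The log2 fold change of -0.26 (SE 0.244, adjusted p = 0.453) had an interval from 0.600-fold to 1.17-fold, and without the correction for effective length, which ran from 1741 to 2612 bases among wildtype libraries, it was -0.04. It was -0.10 without wildtype replicate 1 and -0.44 without wildtype replicate 3.

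Ppif (ENSMUSG00000021868.6, chromosome 14, 25694154 to 25700468, plus strand), encoding cyclophilin D, was lower in the knockout. It had 1942, 2021, 1793 and 1834 normalized counts in wildtype and 1861, 1366, 1107 and 1361 in knockout replicates. Knockout replicates 2, 3 and 4 lay below all wildtype libraries, and replicate 1 lay among them. The mean fell from 1897 ± 103 to 1424 ± 316, which is 0.750-fold with an interval from 0.607-fold to 0.927-fold (log2 -0.41, SE 0.156, DESeq2 adjusted p = 0.0264, edgeR adjusted p = 0.0337). The call was lost when wildtype replicate 1 (adjusted p = 0.0808), 2 (0.097) or 4 (0.0601) or knockout replicate 2 (0.0778) or 4 (0.0819) was left out, with log2 fold changes of -0.38 to -0.43. It was also lost under total counts without mitochondrial rRNA (0.02, adjusted p = 0.955), and without knockout replicate 1 the log2 fold change was -0.57 (adjusted p = 6.01e-06).

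**Figure D2:**
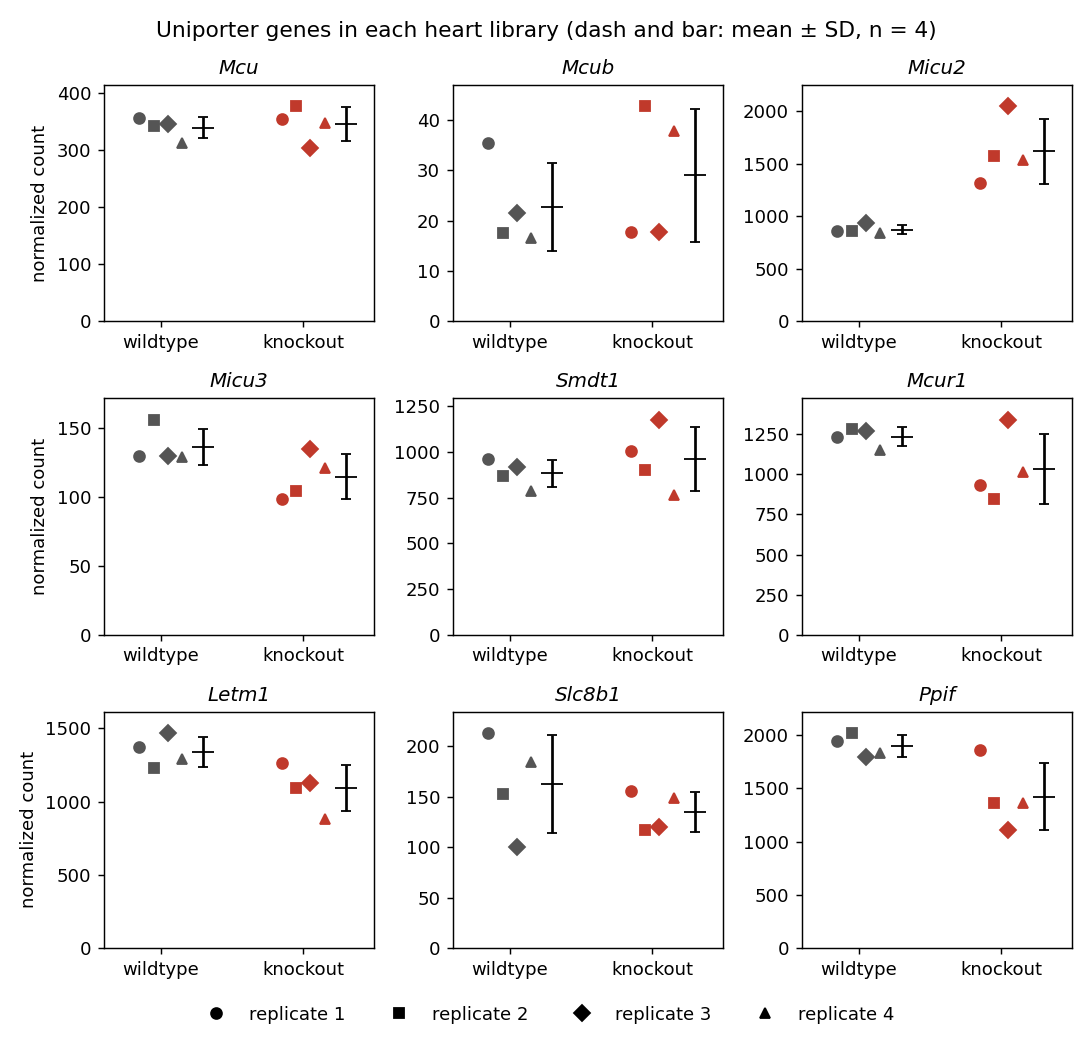
Normalized counts of each uniporter gene in every library, 1 panel per gene with its own vertical axis from 0, with symbols for replicates 1 to 4 and a dash and bar for the mean ± SD of the 4 libraries of a genotype. The 4 knockout libraries of Micu2 (1314 to 2045) sit above the wildtype libraries (844.8 to 933.8), and in the other 8 panels the genotypes overlap.

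The direction of most of these changes depended on how libraries were scaled. Mitochondrial rRNA took unequal shares of the 2 genotypes, and which RNAs produced the shifts below was not tested. Scaling to total counts moved the median gene by -0.296 (log2), and scaling to total counts without mitochondrial rRNA moved it by 0.425. Higher genes made up 53.9% of the calls under the median-of-ratios scaling used here, 24.6% under total counts and 87.8% under total counts without mitochondrial rRNA. Micu2 stayed higher under each, with log2 fold changes of 0.58 and 1.31 under the 2 total-count scalings. Ppif moved to -0.71 and 0.02, Mcu to -0.26 and 0.46, and Letm1 to -0.60 and 0.13. Relative to the median gene of the same fit the members hardly moved, with Micu2 at 0.86 or 0.87, Mcu at 0.01 and Ppif at -0.43 under all 3 scalings.

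**Figure D3:**
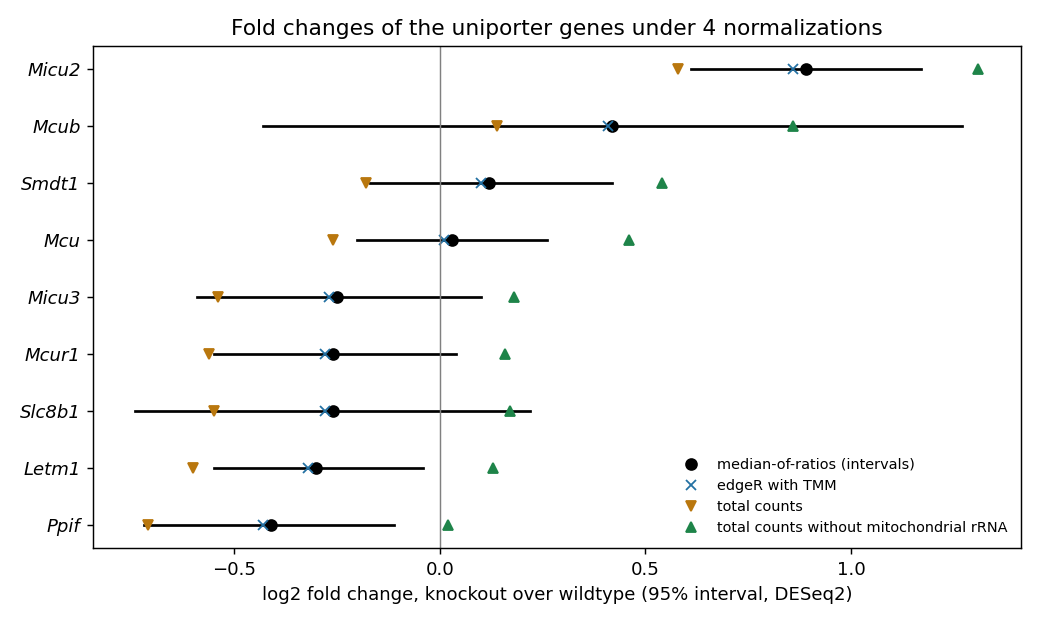
Log2 fold change of each uniporter gene, knockout over wildtype, with the DESeq2 estimate and its 95% interval (black), the edgeR estimate (cross) and 2 total-count scalings (triangles). Only Micu2 has all 4 estimates above 0 together with an interval that leaves out 0, and all 9 genes shift left or right together with the scaling.

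The makeup of the channel was described by ratios of TPM to Mcu within a library, which do not depend on the scaling between libraries. Of the 5 ratios examined, that of Micu2 to Mcu was the only one whose genotypes did not overlap. It was 2.85, 2.98, 3.20 and 3.21 in wildtype and 4.40, 4.96, 7.95 and 5.21 in knockout replicates 1 to 4. Each knockout heart thus held more Micu2 per Mcu transcript than any wildtype heart. The log2 ratio was 1.59 ± 0.081 in wildtype and 2.42 ± 0.37 in knockout (SD, n = 4), a difference of 0.84 (exact permutation test, two-sided, p = 0.0286, the smallest that 70 assignments allow). Adjusted over the 5 ratios by Benjamini-Hochberg it was 0.143 by the exact permutation test, and with 4 libraries against 4 a lone ratio at the smallest p cannot pass that adjustment.

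The other 4 ratios overlapped between the genotypes, and none passed the exact permutation test. Smdt1 to Mcu was 12.3 to 13.1 in wildtype, a narrow range, and 10.6 to 18.7 in knockout hearts, with a log2 difference of 0.08 (exact permutation p = 0.8, adjusted 0.8). Without knockout replicate 3, which had the ratio of 18.7, that difference was -0.08. Mcub to Mcu, the ratio of the conductance-lowering subunit to the pore, was 0.144 to 0.277 in wildtype and 0.139 to 0.313 in knockout hearts (difference 0.25, exact permutation p = 0.4, adjusted 0.5). That difference was 0.55 with expected counts in place of TPM, and 0.10 without knockout replicate 2 to 0.43 without replicate 1 of either genotype. Micu3 to Mcu was 0.412 to 0.517 against 0.313 to 0.502 (difference -0.26, exact permutation p = 0.171, adjusted 0.429). Slc8b1 to Mcu was 0.345 to 0.715 against 0.370 to 0.522 (difference -0.24, exact permutation p = 0.371, adjusted 0.5). Leaving out knockout replicate 3 brought the Micu3 ratio to a difference of -0.39 at the smallest p, 0.0286 by the exact permutation test, and 0.0714 after adjustment. Leaving out wildtype replicate 3 brought the Slc8b1 ratio to -0.45, with the same exact permutation p of 0.0286 and 0.0714 after adjustment. Other settings moved both differences either way. The Micu3 ratio differed by -0.30 with expected counts or without wildtype replicate 1, and the Slc8b1 ratio by -0.29 without knockout replicate 1. Smaller differences also occurred. The Micu3 ratio differed by -0.17 without knockout replicate 2 and by -0.15 with 1 added to each TPM. The Slc8b1 ratio differed by -0.12 without wildtype replicate 1 or 4, by -0.13 without knockout replicate 2 and by -0.09 with expected counts.

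**Figure D4:**
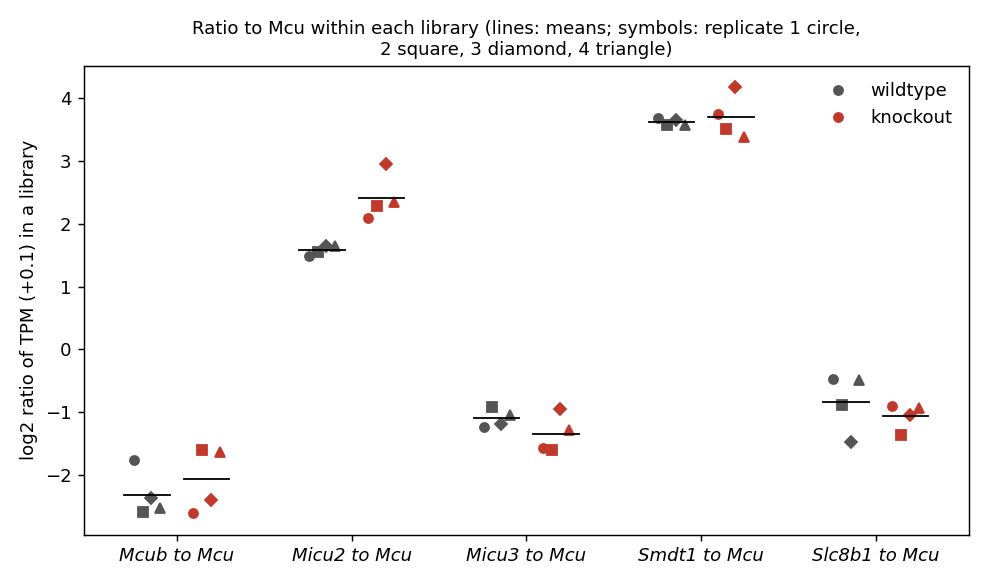
Log2 of the ratio of TPM (each with 0.1 added) of 5 genes to Mcu within each library, with symbols for replicates 1 to 4 and a line at each genotype's mean. The knockout libraries are above the wildtype libraries for Micu2 to Mcu, and overlap them in the other 4 ratios, with the 4 wildtype values of Smdt1 to Mcu lying close together.

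The genes whose normalized counts followed Micu2 most closely over the 8 libraries, among 9867 protein-coding genes, were Pfn1, an actin-binding profilin (Pearson r = 0.9992), Bzw1, a regulator of translation initiation (0.9981), and Grina (0.9977). The 8 libraries fall into 2 genotypes, and these 3 genes also differed between them, by 0.82, 0.72 and 0.97 on the log2 scale. The correlations therefore hold the genotype difference as well as the spread within a genotype, and are given as a description.

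Around the uniporter, 74 further genes of calcium entry, exchange and use were read from the same fit in 6 lists. Of these, 19 were higher and 11 lower in the knockout, 40.5% against the 33.7% over all records. Calls were spread over all 6 lists, and the directions differed between them. Without knockout replicate 3 the count of called genes was 38. Of the 30 called genes, Spg7 and Pdzd8 changed sign under a total-count scaling and the others did not. The median of the permeability transition candidates was 0.67 and 1.39 under the total-count scalings, and the medians of the other 5 lists were below 0 under total counts and above 0 without mitochondrial rRNA.

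Of 6 further exchanger genes and Letm1 relatives, 2 were higher and none lower, 33.3% called against 33.7% over all records, with a median of -0.21. Ghitm, an inner membrane protein described as a calcium-proton exchanger, rose from 5867 ± 205 to 12300 ± 1250 normalized counts (log2 1.07, SE 0.0967, adjusted p = 1.87e-26). It had 6100, 5834, 5927 and 5608 in wildtype and 12620, 11110, 13920 and 11550 in knockout replicates, without overlap. Slc8a1, the sodium-calcium exchanger of the plasma membrane, rose by 0.81 (SE 0.186, adjusted p = 8.76e-05), with its highest value, 20950 against 10340 to 14740, in knockout replicate 3.

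Of 14 genes that process EMRE or act beside the uniporter, 2 were higher and 3 lower, 35.7% called against the same 33.7%, with a median of 0.19. Afg3l2, a subunit of the m-AAA protease that removes unassembled EMRE, rose from 1776 ± 87.6 to 3524 ± 359 normalized counts (log2 0.99, SE 0.102, adjusted p = 1.51e-20). Slc25a23, a calcium-sensitive carrier of ATP-Mg and phosphate, fell from 672.0 ± 32.9 to 343.4 ± 33.5 (log2 -0.96, SE 0.112, adjusted p = 3.09e-16). Efhd1, an EF-hand protein of mitochondria, fell from 63.7 ± 12.2 to 16.8 ± 11.5 (log2 -1.91, SE 0.443, adjusted p = 0.000114). The m-AAA subunits did not move together, since Afg3l1 rose by 0.48 (adjusted p = 2.24e-05) and Spg7 changed by -0.39 (adjusted p = 0.00995), which turned to 0.03 under total counts without mitochondrial rRNA. Maip1, which guards EMRE before assembly, had a log2 fold change of -0.01 (adjusted p = 0.946).

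Of 18 genes that deliver calcium to mitochondria at contacts with the sarcoplasmic reticulum, 4 were higher and 3 lower, 38.9% called against 33.7% over all records, with a median of -0.07. Of the 4 release channels on that side, 2 fell. Ryr2, the ryanodine receptor of heart muscle, fell from 79440 ± 719 to 30060 ± 5830 normalized counts (log2 -1.40, SE 0.14, adjusted p = 1.02e-21), and Itpr1, an inositol trisphosphate receptor, changed by -0.66 (SE 0.174, adjusted p = 0.000788). Its relatives Itpr2 (-0.20, adjusted p = 0.166) and Itpr3 (0.04, adjusted p = 0.922) did not pass. On the mitochondrial side, Hspa9, the matrix chaperone that also tethers outer membrane channels to those receptors, rose by 0.97 (SE 0.0944, adjusted p = 9.27e-23). The outer membrane channels Vdac2 and Vdac3 rose by 0.65 (adjusted p = 1.12e-10) and 0.43 (adjusted p = 0.000126), and Vdac1 had a log2 fold change of -0.12 (adjusted p = 0.502). The summed cardiomyocyte markers were lower as well, as given above, and the part of cell makeup in the fall of Ryr2 was not tested.

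Of 13 genes of calcium-sensitive metabolism in the matrix and inner membrane, 1 was higher and 4 were lower, 38.5% called against 33.7% over all records, with a median of -0.14. Both catalytic subunits of the phosphatase that activates pyruvate dehydrogenase fell. Pdp1, the isoform that calcium stimulates, changed by -0.63 (SE 0.133, adjusted p = 1.8e-05). Pdp2, which calcium does not stimulate, fell further, from 842.9 ± 72.1 to 166.0 ± 6.5 normalized counts (log2 -2.34, SE 0.121, adjusted p = 1.69e-81), and its 4 knockout libraries lay between 159.9 and 175.1. Pdhb, a subunit of pyruvate dehydrogenase itself, rose by 0.85 (SE 0.114, adjusted p = 1.39e-12).

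Of 11 candidate parts and regulators of the permeability transition, 7 were higher and none lower, with a median of 0.97, or 63.6% called, all of them higher, against 33.7% of all records called and 18.2% called higher. The 7 moved opposite to Ppif, and the other 4, Hk2 (-0.39), Ckmt2 (-0.26), Slc25a4 (-0.21) and Slc25a3 (-0.13), did not pass. Tspo, an outer membrane protein, rose from 223.0 ± 25.5 to 647.8 ± 131 normalized counts (log2 1.54, SE 0.177, adjusted p = 1.35e-16). Bcl2l1, which restrains cell death, rose by 1.51 (SE 0.261, adjusted p = 8.98e-08), and Slc25a5, an adenine nucleotide translocase, by 1.48 (SE 0.156, adjusted p = 1.49e-19). Slc25a4, the translocase isoform of heart muscle, had an adjusted p of 0.336. Bax and Bak1, which permeabilize the outer membrane, rose by 1.16 (adjusted p = 3.66e-11) and 0.97 (adjusted p = 1.34e-06). Tspo is also abundant in macrophages, whose marker sums overlapped between wildtype (3163 to 4068) and knockout libraries (3826 to 8599). Knockout replicate 3, with the sum of 3826, was the highest in Tspo at 752.5 normalized counts, and replicate 2, with the sum of 8599, had 734.3. The part of macrophages in the rise of Tspo was not tested.

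Of 12 other cyclophilins, 3 were higher and 1 lower, 33.3% called against 33.7% over all records, with a median of 0.19. Ppic rose from 209.0 ± 22.3 to 494.2 ± 111 normalized counts (log2 1.24, SE 0.18, adjusted p = 1.05e-10). Ppia, the abundant cytosolic member, rose by 1.09 (SE 0.0755, adjusted p = 3.89e-45), but it belongs to the genes known for many near-identical pseudogene copies, and how reads were divided among them was not tested. Ppil1, a cyclophilin of the spliceosome, was the member that fell, by 0.92 on the log2 scale (SE 0.186, adjusted p = 7.74e-06).

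**Figure D5:**
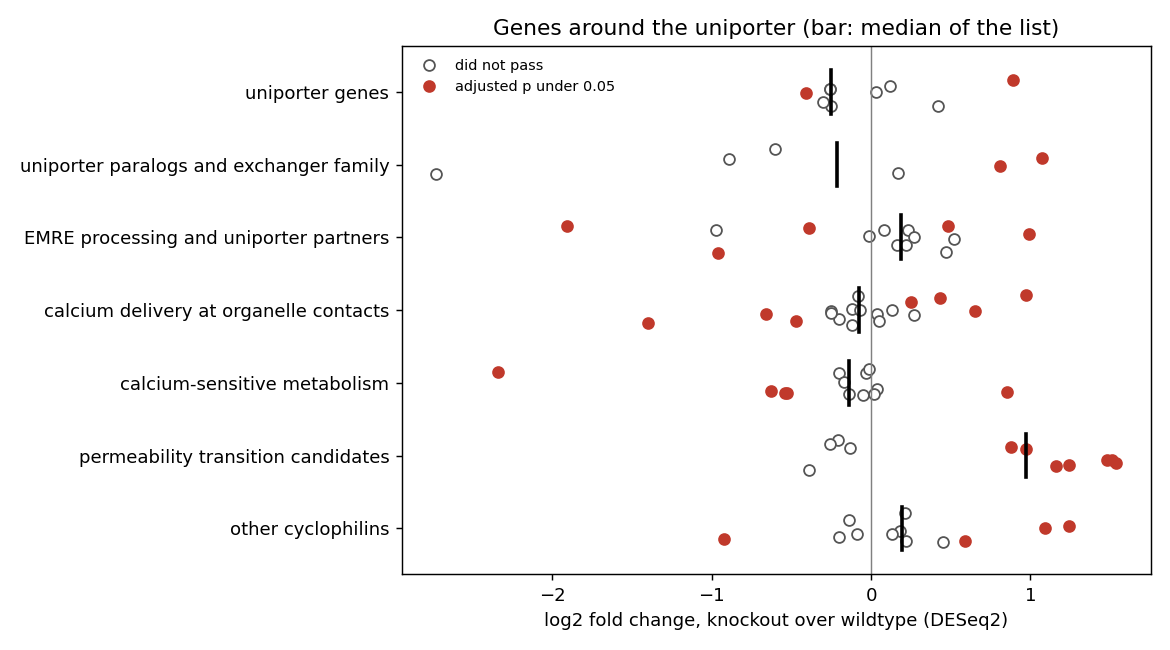
Log2 fold change (DESeq2, knockout over wildtype) of the 9 uniporter genes and of the 74 genes in 6 lists around them, with filled dots for an adjusted p under 0.05 and a bar at each list's median. Under the median-of-ratios scaling the medians of 6 of the 7 rows lie between -0.25 and 0.19, and that of the permeability transition candidates is 0.97.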

How the data were processed

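Total RNA from hearts was sequenced in paired-end libraries. The authors quantified reads with RSEM 1.2.31 and Bowtie2 on GENCODE vM13 transcripts (mm10) plus mitochondrial sequences of their own, with reverse strandedness. Per the file headers, the deposited values are expected counts, TPM and effective lengths in bases. A deposited results file holds the authors' fold changes and p-values and was not used, nor were 8 normalized columns whose names match no label. Expected counts were rounded and fitted in DESeq2 1.42.0 (R 4.3.3) with median-of-ratios scaling and effective lengths as an offset, and in edgeR 4.0.16 as an alternative. The study's methods name tximport and DESeq2 but state neither the scaling nor an offset. P-values were adjusted by Benjamini-Hochberg over all genes with a threshold of 0.05, and intervals are 95% Wald intervals. Normalized counts are counts divided by the library and length factors.

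Of 50563 Ensembl identifiers, 50339 were matched to GENCODE M21 (GRCm38). Ratios of TPM are printed as they are, and 0.1 was added to each TPM for their log2 values and tests. The text names every member, Lrpprc, per list the 3 called genes of largest absolute fold change, and the 3 genes most like Micu2; other genes named beside them, and the promoter and span neighbors, were chosen after their values were seen. The members and lists were chosen with earlier results of these data known. On simulated data with known changes, DESeq2 called unchanged genes more often than its threshold implies and edgeR less often than DESeq2, so a call near the threshold is less certain. The simulated counts used dispersions from edgeR, alike in both genotypes, with fixed lengths and few changed genes. The simulation therefore resembles these data only in part and does not rank the tools on them. Counts of libraries of the same genotype differed by more than sampling noise. Chi-square per degree of freedom was 4.649 to 10.02 between wildtype and 14.68 to 52.89 between knockout libraries. P-values of the fits weigh the genotype difference against the spread between these 8 hearts, with the same dispersion taken for both genotypes. The depth limits scarce genes such as Mcub most. Proteins were not analysed here.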

Additional observations from a re-analysis of the deposited data

Results flagged for a closer look

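Among 28 sets of 4 libraries examined, 1 held a library far from the other 3. Micu3 had 155.7 normalized counts in wildtype replicate 2, against 128.6 to 129.8 in the other wildtype hearts. About 1 in 20 such sets would be marked by chance. Without that library the log2 fold change of Micu3 was -0.18, against -0.25 with it, and its cause was not tested.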

How the results depend on the processing

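Micu2 kept its call in all 15 alternatives of the fit (log2 fold change 0.58 to 1.31). The number of uniporter genes called was 2; it was 5 under total counts, where Micu3, Mcur1 and Letm1 joined, 3 under total counts without mitochondrial rRNA, where Mcu (0.46, adjusted p = 0.00167) and Smdt1 (0.54, adjusted p = 7.42e-05) joined Micu2 and Ppif was lost (adjusted p = 0.955), and 1 to 3 when libraries were left out in turn, with Micu2 alone left without wildtype replicate 1, 2 or 4 or knockout replicate 2 or 4. The 74 genes around the uniporter gave 30 calls, 48 under total counts, 53 under total counts without mitochondrial rRNA, and 29 to 38 with a library left out. Over all genes the calls also rose, from 6728 to 7836 and 9020 under these scalings. Signs turned under total counts for Mcu (-0.26) and Smdt1 (-0.18), and under total counts without mitochondrial rRNA for Micu3 (0.18), Mcur1 (0.16), Letm1 (0.13), Slc8b1 (0.17) and Ppif (0.02), since those scalings move the median gene. Mcu ran from -0.01 to 0.08 and the Smdt1 to Mcu ratio from -0.08 to 0.19 with a library left out. Letm1 was called in edgeR, without the length offset (-0.34, adjusted p = 0.00582) and without knockout replicate 1 (-0.37, adjusted p = 0.016); the cause was not tested.

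The genotypes share replicate numbers, but same-numbered libraries did not deviate together (correlations of -0.01358, -0.04361, -0.07351 and 0.07227 over 15754 genes). With a replicate block 5496 of all genes were called, against 6728, and 2 uniporter genes, Micu2 (0.87) and Ppif (-0.44, adjusted p = 0.0118); it changed no call of a member. Calls over all genes ran from 5528 to 6969 with a library left out. The interval of Mcub, the scarcest member, spans both directions, and the part of depth in its width was not tested.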
